A study of Rattus norvegicus with 8 samples.

Results

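Unstimulated cultured rat Schwann cells were set against whole, uncut sciatic nerve, the tissue in which these glia normally lie. The culture was the one headed as the 24 h control of a stimulation series, and the nerve was the contralateral one, both taken by the column headings of the authors' deposited value table. For each gene the log2 ratio is the culture's deposited log2 signal minus the nerve's, so 1 means 2-fold higher in culture and -1 means 2-fold lower. Of 12765 gene symbols in the value table, 11943 were well above background on at least 1 of the 2 arrays and are described here, and 822 were dim on both. There was 1 array a side, so no test of any difference was possible and no p-value is given. The error after each ± is technical, taken from replicate spots and pooled over probes of like signal, and covers neither animals nor cultures.

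The series holds 8 one-colour Agilent arrays, 1 for each group, all of Sprague-Dawley rats. The 3 culture arrays were primary Schwann cells with no stimulation, or treated for 1 h or 24 h with S100A8/A9, a calcium-binding protein complex, at 5 µg/ml. They came from sciatic nerves of pups of postnatal day 1 to 3, were freed of fibroblasts with AraC and with an antibody to Thy1.1 and complement, reached over 99% purity by S100 staining, and were used at passages 3 to 7. The medium held 10% fetal bovine serum, bovine pituitary extract and 4 µM forskolin, an activator of adenylyl cyclase, and all 3 cultures shared this. The 3 nerve arrays were the contralateral right nerve and the distal and proximal segments of the transected left nerve, each a pool of 3 adult female rats at day 1. The contralateral label also mentions a PBS injection site, and no source used here says what was injected elsewhere. The 2 cord arrays, dorsal hemisection and C-level control at day 5, are given only to show which signals also occur in another tissue. Culture and nerve thus differed in cell makeup, age of the rats, passage, serum and forskolin at once, and these cannot be told apart here. In whole nerve, fewer cells of a type and less RNA per cell cannot be told apart either.

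The share of the 30367 probes flagged well above background was 66.7% to 77.6% per array, with 69.2% for the unstimulated culture and 72.0% for the contralateral nerve. For 7 of the 8 samples, the culture and the contralateral nerve among them, the scan that ranked with the value table column was recorded under another sample, so every direction below rests on the column headings. The scan recorded under the culture ranked with the proximal nerve column (rho 1.000). That recorded under the contralateral nerve ranked with the dorsal hemisection cord column (rho 1.000). Under the headings, a ratio read as recorded is therefore proximal nerve minus cord. Read as recorded, the scans gave the opposite sign for many genes, and those values stand with the alternatives. The median of the cell division list was then 0.023 and that of the myelin list -0.43. The columns all share the median 8.03, so a ratio is relative to the whole of each array. Across probes the unstimulated culture ranked at a Spearman rho of 0.847 with the contralateral nerve, against 0.991 and 0.993 with the other cultures. The contralateral nerve in turn stood at 0.951 and 0.958 with the cut segments.

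Schwann cells are the glia of peripheral nerves. In the adult nerve they either wrap 1 large axon each in myelin, a stack of lipid-rich membrane held together by a few abundant proteins, or hold groups of small axons as non-myelinating Remak cells. Contact with axons, through neuregulin and its ErbB receptors among others, keeps them in these states. After injury, and when cultured away from axons, they are known to leave the myelin programme, divide and take up genes of the immature and repair cell. A whole nerve also contains fibroblasts, perineurial cells, vessels, macrophages, mast cells, fat and blood.

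The culture differed from the nerve at a great many genes. Of the 11943 genes, 2572 were higher by 2-fold or more in the culture (21.5%) and 2482 were lower by as much (20.8%), together 42.3%, with a median log2 ratio of 0.22. The lower side held the larger differences. At 16-fold or more there were 162 genes higher and 680 lower. For 443 of the higher genes and 933 of the lower ones the dimmer array was not well above background, so the ratio is a bound, set against the lowest signal among probes well above background there (3.32 in the culture and 2.99 in the nerve, log2). In all 9 pairings of a culture array with a nerve array, 1038 genes (8.69%) stood 2-fold or more up in culture and 1544 (12.9%) 2-fold or more down, and these pairings share arrays and are not replicates. The tallies of gene lists below are to be read against these shares. With normexp background correction and quantile normalization of the matched scans, 1696 genes were higher and 1649 lower.

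**Figure D1:**
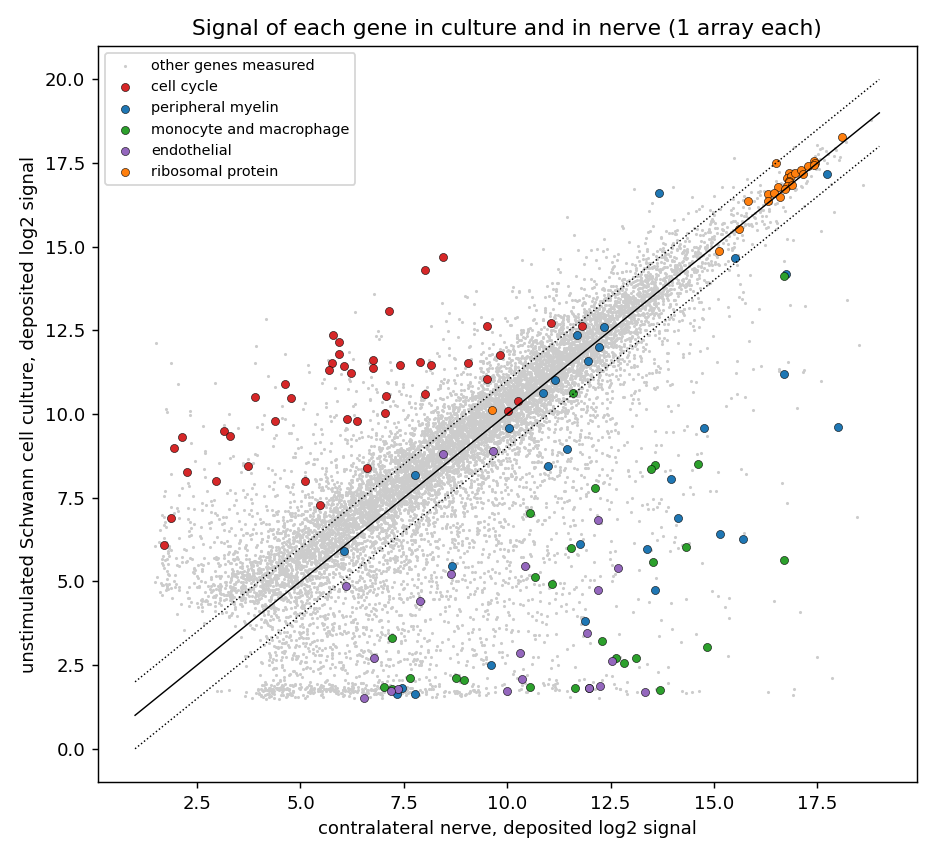
Deposited log2 signal of 11943 genes in the contralateral nerve (horizontal axis) and the unstimulated Schwann cell culture (vertical axis), 1 array each; the solid line marks equal signal and the dotted lines 2-fold. Most cell cycle genes lie above the lines, most macrophage and endothelial genes and many myelin genes below, and 26 ribosomal protein genes between them.

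Among genes well above background on both arrays, the one furthest up in culture was Gfra3, which encodes the co-receptor for the neurotrophic factor artemin. Its signal was 12.83, 10.78 and 13.21 in the unstimulated, 1 h and 24 h cultures, against 4.17, 4.09 and 3.25 in the contralateral, distal and proximal nerve and 2.87 and 3.08 in the dorsal hemisection and C-level cord. The 3 cultures lay far above every tissue array, and the log2 ratio was 8.66 ± 0.46. Next came Akap5, which anchors protein kinase A to membranes, at 8.12 ± 0.46. Mgarp, a mitochondrial protein linked to the hypoxia response, stood at 6.94 ± 0.65, and the neurite-regulating membrane protein gene Slitrk6 at 6.79 ± 0.27. Olfm2, an olfactomedin family member, had 6.44 ± 0.46, and Ptprn, a protein of dense core vesicles, 6.30 ± 0.30. The other 9 of the 15 largest measured ratios were Ngfr and 8 genes of cell division. Among them Pimreg, a mitotic regulator, had 2 probes that disagreed in size, at 7.17 and 0.25.

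Several genes seen in the culture had no signal above background in the contralateral nerve. Ajap1, an adherens junction protein, had a ratio of at least 9.15, with 12.14, 11.87 and 12.17 in the cultures, against 1.51, 3.66 and 6.44 in the nerves. The cultures were the highest arrays and the proximal segment the highest of the nerves. Tyrp1, a melanosome enzyme of the pigment cell, which shares its neural crest origin with the Schwann cell, was at 11.52, 10.37 and 11.61 in the cultures, against 1.87, 1.98 and 2.09 in the nerves, a ratio of at least 8.53 that kept apart on every array. Scrg1, a gene known from prion-diseased brain, had at least 7.92, the calcium-dependent kinase Camk4 at least 7.60 and the homeobox gene Hmx2 at least 7.17. Col7a1, the anchoring fibril collagen, had at least 7.12, but stood at 7.17 and 6.55 in the distal and proximal segments, above its contralateral signal of 2.34.

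The label of the cells was checked against Schwann cell identity genes. Of 26 measured, 9 were higher and 9 lower in culture, with a median of 0.09, near the 0.22 of all genes. Against the distal segment 16 were higher and 6 lower (median 2.19), and against the proximal segment 16 and 9 (median 1.60). The culture had 25 of the 26 well above background, as did the contralateral nerve. Most measured genes had such a signal, so this count does not mark the list out. Of 11943 genes, 10350 were well above background on both arrays, 513 in the culture alone and 1080 in the nerve alone. Sox10, the transcription factor that specifies this lineage, was at 14.94, 14.37 and 14.84 in the cultures, against 12.17, 10.69 and 11.23 in the nerves, and its ratio was 2.77 ± 0.08. All 3 cultures stood above all 3 nerves and both cords. Erbb3, the neuregulin receptor, had 2.14 ± 0.12, and Cadm4, an adhesion molecule that meets axonal partners, 2.33 ± 0.09. Adgrg6, the receptor that drives cyclic AMP before myelination, had 2.09 ± 0.08, and Insc, an adaptor of spindle orientation, 3.52 ± 0.08. Cdh19, a cadherin typical of Schwann cell precursors and their descendants, differed little from the contralateral nerve (0.30 ± 0.11), while the cut segments were lower, at 5.87 and 6.42 against 8.53 there.

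Other lineage genes were lower in the culture. S100b, the calcium-binding protein used to stain these cells, was at 13.14, 13.23 and 13.14 in the cultures, against 16.09, 14.09 and 14.46 in the nerves, a ratio of -2.95 ± 0.07. Every culture array was below every nerve array. Kcna1, a potassium channel that sits beside the node of Ranvier, was not well above background in the culture, with a ratio of -9.56 or lower. Fxyd1, a regulator of the sodium pump, was lower, at -5.76 ± 0.10, Art3, an ADP-ribosyltransferase relative, at -4.98 ± 0.08 and Sostdc1, an inhibitor of BMP and Wnt signalling, at -4.30 ± 0.03. Sema3e, a secreted guidance factor, went the other way, with a ratio of at least 5.61.

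**Figure D2:**
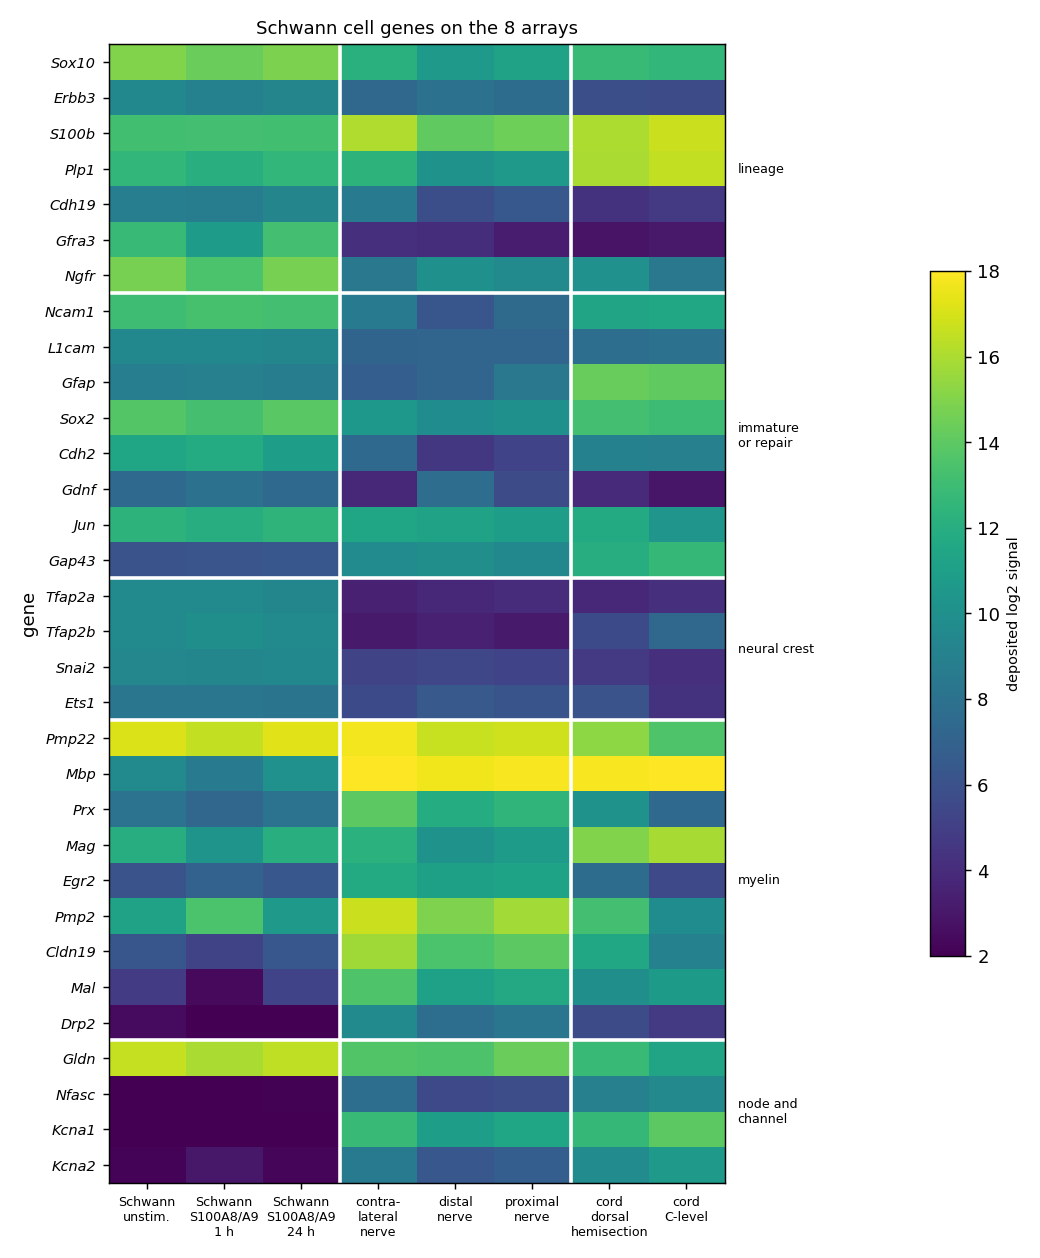
Deposited log2 signal (colour, with values under 2 or above 18 at the end colours) of 32 Schwann cell genes in rows on the 8 arrays in columns, cultures left, nerves centre and cords right. Levels are to be compared along a row and not between genes; Gfra3, Ngfr, Tfap2a and Tfap2b are brighter in the 3 cultures, and Cldn19, Mal and Kcna1 darker.

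Myelin genes were mostly lower in the culture. Of 31 measured, 19 were at least 2-fold lower and 1 higher, with a median of -3.19, and 17 were lower in all 9 pairings. The share lower in all 9 pairings was 12.9% among all genes. The ratios were uneven across the proteins of compact myelin. Pmp22, a membrane protein whose dosage matters for inherited neuropathy, was at 17.17 in culture and 17.74 in nerve, within 2-fold. Pmp2, the lipid carrier of compact myelin, stood at 11.19, 13.47 and 10.63 in the cultures, with the 1 h array highest, against 16.70, 14.89 and 15.77 in the nerves. Mbp, myelin basic protein, had a ratio of -8.37 ± 0.08 on its brighter probe, while its second probe gave 0.26, so its direction is not settled by these arrays. Mag, the adhesion molecule of the inner myelin wrap, was within 2-fold at -0.23 ± 0.11, and its probes disagreed in sign.

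Genes of the junctions, the cytoskeletal scaffold and lipid synthesis of myelin were much lower. Cldn19, the tight junction protein of Schwann cells, was at 6.26, 5.28 and 6.34 in the cultures, against 15.69, 13.45 and 13.95 in the nerves. Every nerve array was more than 7 log2 units above every culture, and the ratio was -9.44 ± 0.20. Prx, periaxin, and Drp2, its dystrophin-related partner, form the scaffold under the outer membrane. Prx had a ratio of -5.89 ± 0.10 and Drp2 of -6.30 or lower. Mal and Pllp, proteolipids of lipid rafts, had -8.82 ± 0.54 and -7.25 ± 0.09, and Bcas1, a marker of myelinating glia, -8.73 ± 0.20. Fa2h, which adds the hydroxyl group to myelin lipids, had -7.41 ± 0.09, and Ugt8, which makes galactosylceramide, -2.49 ± 0.10. Aspa, the enzyme that splits N-acetylaspartate, was not well above background in culture, with -8.06 or lower.

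Egr2, the transcription factor that drives the myelin programme, was at 6.11, 7.01 and 6.37 in the cultures, against 11.77, 11.08 and 11.30 in the nerves, a ratio of -5.67 ± 0.09. It was lower in each culture than in each nerve. Pou3f1, which acts before Egr2 as cells begin to myelinate, was within 2-fold at -0.39 ± 0.10. The only myelin list member that was higher was Gldn, gliomedin, which clusters sodium channels at the node, at 16.61, 15.98 and 16.45 in the cultures, against 13.67, 13.53 and 14.35 in the nerves, with 2.94 ± 0.07. Its neighbours at the node and beside it went the other way, with Nfasc, the neurofascin adhesion molecule, at -4.46 or lower and Cntn2, a contactin, at -4.16 ± 0.54. Cntf, a factor that supports neurons and is stored in myelinating cells, was lower, at -5.17 ± 0.04, while Dhh, the hedgehog ligand through which Schwann cells act on the perineurium, was within 2-fold at -0.37 ± 0.08.

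Genes of the immature and repair Schwann cell were more often higher. Among the 30 with a signal, 17 were 2-fold or more up and 5 down, with a median of 1.76, and 12 were higher in all 9 pairings. The share higher in all 9 pairings was 8.69% among all genes. Ngfr, the p75 neurotrophin receptor, was at 14.73, 13.50 and 14.70 in the cultures, against 8.43, 10.04 and 9.62 in the nerves and 10.09 and 8.38 in the cords. The lowest culture was still above the highest nerve by more than 2-fold, and the ratio was 6.30 ± 0.04. Ncam1, a cell adhesion molecule of non-myelinating and immature cells, had 4.43 ± 0.08, and L1cam, its relative, 2.33 ± 0.12. Cdh2, N-cadherin, was at 11.39, 11.82 and 10.94 in the cultures, against 7.45, 4.62 and 5.20 in the nerves, so the gap to the cut segments was wider than to the contralateral nerve. Sox2, a factor of immature cells that opposes myelination, had 3.18 ± 0.08, the matrix protein gene Tnc 3.33 ± 0.08 and the glial filament gene Gfap 2.07 ± 0.09. Gfap was at 8.83, 8.99 and 8.78 in the cultures, against 6.76, 7.22 and 8.42 in the nerves and 14.27 and 14.12 in the cords. The proximal segment was thus within 2-fold of every culture.

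Injury-linked members did not all stand the same way toward the cut segments. Gdnf, a survival factor for motor neurons, was at 7.45, 8.01 and 7.50 in the cultures, against 3.80, 7.69 and 5.63 in the nerves. The distal segment was about as high as the cultures, and only the contralateral nerve was dim. Ucn2, a urocortin, was likewise higher in the cut segments, at 12.56 and 11.50, than in the unstimulated culture, at 10.89, and it was lowest in the contralateral nerve, at 7.31. Jun, the central regulator of the repair cell, was within 2-fold of the contralateral nerve at 0.87 ± 0.08, and the stress factor gene Atf3 was higher at 2.19 ± 0.08. Gap43, the growth cone protein, was lower, at 6.09, 6.21 and 6.32 in the cultures, against 9.72, 9.92 and 9.45 in the nerves and 11.99 and 12.67 in the cords. Artn, artemin, and Olig1, a factor of oligodendrocytes, were lower too, at -2.19 ± 0.14 and -1.49 ± 0.10.

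Transcription factors of the neural crest and early lineage had a median of 0.50, with 8 of 19 higher and 4 lower. Tfap2a and Tfap2b, AP-2 factors of the crest and of Schwann cell precursors, showed the widest gap. Tfap2a was at 9.58, 9.62 and 9.36 in the cultures, against 3.49, 3.81 and 4.04 in the nerves and 3.78 and 4.14 in the cords, and was well above background in the culture and not in the contralateral nerve. Tfap2b was at 9.68, 10.00 and 9.60 in the cultures, against 3.15, 3.48 and 3.19 in the nerves. Their ratios were at least 6.09 and at least 6.53. Snai2, a factor of migrating crest cells, had 4.10 ± 0.30 and Ets1, another factor of the crest, 2.68 ± 0.31, whereas Twist1, a mesenchymal factor, was lower, at -2.95 ± 0.21. Pax3, found in dividing Schwann cells, had a flat signal, between 12.5 and 13.1 on all 8 arrays.

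Genes listed for Remak cells were mixed. Of 13, 7 were lower and 4 higher than in the contralateral nerve, with a median of -1.52. Against the distal segment 6 were higher and 3 lower (median 0.056), and against the proximal segment 5 and 4 (median -0.26). The 4 higher ones, Ngfr, Ncam1, L1cam and Gfap, are shared with the immature list. Apod, a lipid-binding apolipoprotein, was at 10.98, 10.77 and 10.79 in the cultures, against 17.59, 16.63 and 16.77 in the nerves, lower, at -6.62 ± 0.08. Gpr37l1, a glial receptor, had -5.52 ± 0.14, and Gal, the neuropeptide galanin, -4.39 ± 0.13. Each of these 3 was lower in every culture than in every nerve.

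Genes for signals between axon and Schwann cell had 13 of 27 higher and 6 lower, with a median of 0.73. Among receptors, Erbb2, the partner of ErbB3, had 1.27 ± 0.11, with its 3 probes between 0.75 and 2.11, and Notch1, the receptor that keeps cells immature, 1.79 ± 0.08. Jag1, a Notch ligand, had 2.65 ± 0.08, and Hey2, a Notch target, 4.07 ± 0.30. Nrg1, neuregulin 1 itself, was dim only in the contralateral nerve, with 6.80, 7.92 and 6.83 in the cultures, against 3.51, 7.02 and 7.32 in the nerves. The cut segments reached the level of the unstimulated culture. Cadm3, which binds Cadm4 across the axon-glia gap, was not well above background in the culture, with -5.87 or lower.

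Neurotrophic factors and their receptors had 10 of 31 higher and 12 lower, with a median of -0.24. The GDNF family receptors stood together on the higher side, with Gfra1 at 1.82 ± 0.08 and Gfra2 at 2.51 ± 0.04 beside Gfra3, while their signalling partner Ret was lower at -1.38 ± 0.35 and at -3.45 on its second probe. For Ret the culture was at 5.04 and the distal and proximal segments were at 4.73 and 4.50, below it. Bdnf, brain-derived neurotrophic factor, was at 5.39 in the culture and dim in nerve, a ratio of at least 2.40. Ntf3, neurotrophin 3, was at background on all 3 cultures, with -3.50 or lower. Among the Trk receptors, Ntrk2 was lower, at -3.68 ± 0.42, as was Ntrk3, at -2.25 ± 0.10 but close to the distal segment, and the Ntrk2 probes ranged from -3.68 to -0.31. Igf1, insulin-like growth factor 1, showed the largest gap of the list, at 6.44, 7.56 and 6.53 in the cultures, against 15.72, 15.91 and 15.50 in the nerves.

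Cell division genes formed the most uniform group on the higher side. Among the 44 with a signal, 41 were 2-fold or more up and none down, with a median of 4.66, and 25 were higher in all 9 pairings. The share higher in all 9 pairings was 8.69% among all genes. Against the distal segment 26 were higher and 0 lower (median 1.37), and against the proximal segment 29 and 0 (median 1.93). The culture had all 44 well above background and the contralateral nerve 36. Cdk1, the kinase that starts mitosis, was at 14.32, 14.70 and 14.04 in the cultures, against 8.02, 12.44 and 11.66 in the nerves and 11.91 and 8.59 in the cords. Contralateral nerve and C-level cord were the lowest arrays, and the cut segments lay between them and the cultures. The ratio was 6.29 ± 0.05. Ccna2, cyclin A2, was at 12.36, 12.94 and 12.46 in the cultures, against 5.79, 11.05 and 10.40 in the nerves, with 6.58 ± 0.30. Ccnb2, cyclin B2, had 6.61 ± 0.46, Ttk, the spindle checkpoint kinase, 6.26 ± 0.65, and Rrm2, which makes the nucleotides for replication, 6.27 ± 0.08.

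Replication and mitosis genes differed in how they stood to the cut segments. Mcm3, part of the replicative helicase, was at 12.62, 13.20 and 12.48 in the cultures, against 9.51, 12.96 and 12.75 in the nerves, so distal and proximal segments lay within the range of the cultures and only the contralateral nerve was low. Cdc6, which loads that helicase, was at 8.28, 9.10 and 8.05 in the cultures, against 2.25, 7.79 and 7.72 in the nerves, with both cut segments below every culture and far above the contralateral nerve. Plk1, a mitotic kinase, was at 13.08, 13.58 and 12.74 in the cultures, against 7.14, 9.84 and 9.15 in the nerves, and here the cut segments were more than 2-fold below every culture. The 3 list members within 2-fold were Ccnd1 and Ccnd2, cyclins that answer to growth factors, at 0.06 ± 0.09 and 0.13 ± 0.08, and the replication clamp gene Pcna at 0.82 ± 0.08.

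**Figure D3:**
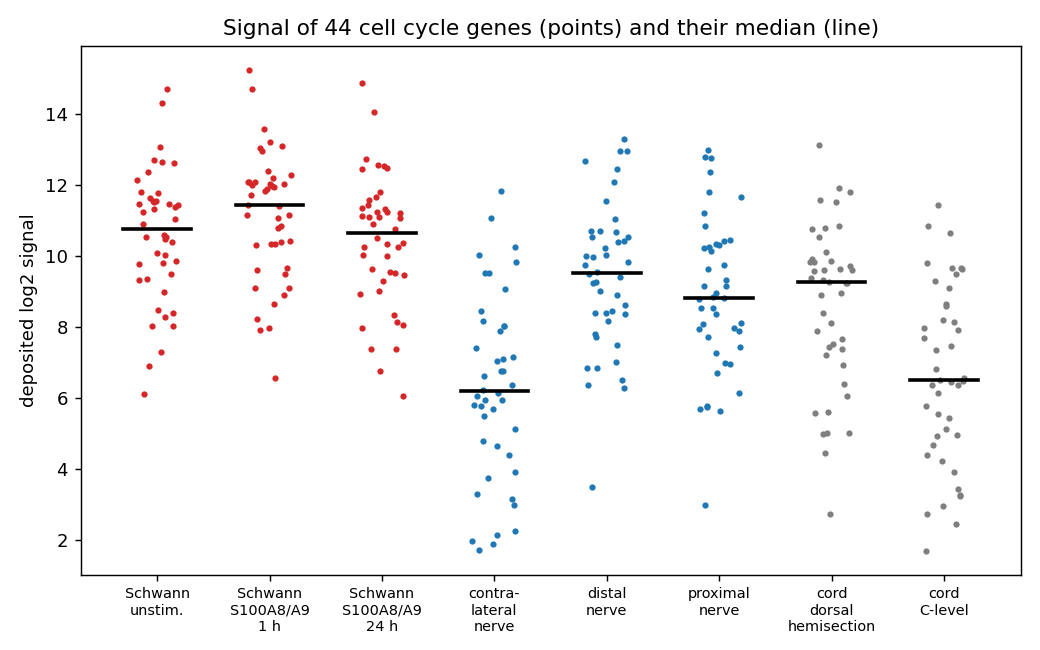
Deposited log2 signal of 44 cell cycle genes (points) on each of the 8 arrays, with the median as a line: red, cultures; blue, nerves; grey, cords. The median was 10.74 in the unstimulated culture, against 6.18 in the contralateral nerve, with the distal and proximal segments at 9.52 and 8.82.

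Because these genes stood together, their promoters were read for the letters TTTGAA, the core of the cell cycle homology region, a site through which the DREAM complex is known to act, and CCAAT, the site of the factor NF-Y. Both strands were searched, so TTCAAA and ATTGG count too, and matches to the 2 motifs can share no more than an end letter. RefSeq promoter windows of assembly GRCr8, 250 bases before to 50 after the start, were found for 31 of the 44 genes. TTTGAA occurred in 14 of them (45.2%) and CCAAT in 24 (77.4%), and 13 held both. Among all 27457 promoters, 18.1% held TTTGAA, 37.7% CCAAT and 7.3% both. For the 9758 promoters matched to measured genes the shares were 12.4%, 37.9% and 5.1%. For the 2122 matched to genes at least 2-fold higher in culture they were 14.4%, 39.2% and 6.6%. A match is a description of letters only. The windows of the 3 cell cycle genes with the largest measured ratios that had an entry are shown to let the spacing of the motifs be seen, with every match on either strand in capitals.
Ccnb2: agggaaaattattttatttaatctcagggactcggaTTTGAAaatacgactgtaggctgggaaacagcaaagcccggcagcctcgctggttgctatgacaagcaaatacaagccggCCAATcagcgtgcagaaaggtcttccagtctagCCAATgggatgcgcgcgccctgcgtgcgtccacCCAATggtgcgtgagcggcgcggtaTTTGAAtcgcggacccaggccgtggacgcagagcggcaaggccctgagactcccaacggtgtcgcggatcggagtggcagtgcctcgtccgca
Cdk1: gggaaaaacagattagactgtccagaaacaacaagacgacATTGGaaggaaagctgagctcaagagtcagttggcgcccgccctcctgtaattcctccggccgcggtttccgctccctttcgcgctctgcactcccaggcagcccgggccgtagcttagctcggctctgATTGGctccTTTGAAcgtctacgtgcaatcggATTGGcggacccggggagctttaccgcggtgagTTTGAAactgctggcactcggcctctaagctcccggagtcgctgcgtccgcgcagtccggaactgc
Ttk: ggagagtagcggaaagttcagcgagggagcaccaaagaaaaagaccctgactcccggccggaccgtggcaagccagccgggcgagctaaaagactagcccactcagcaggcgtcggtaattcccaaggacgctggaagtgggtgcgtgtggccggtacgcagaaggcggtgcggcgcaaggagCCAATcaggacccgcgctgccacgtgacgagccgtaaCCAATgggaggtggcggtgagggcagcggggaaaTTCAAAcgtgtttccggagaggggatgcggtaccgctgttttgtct
Ccnb2 lies at chr8:79981609-79981908 on the minus strand, Cdk1 at chr20:19265043-19265342 on the plus strand and Ttk at chr8:93634389-93634688 on the plus strand. Ccnb2 and Cdk1 each had 2 matches to TTTGAA and 3 to CCAAT, and Ttk had 1 and 2.

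Inhibitors of the cell cycle did not stand together. Of 20, 5 were higher and 5 lower, with a median of 0.03. Among all genes 21.5% were higher and 20.8% lower, so this tally is near the common shares. Cdkn2a, the locus of the inhibitors p16 and p19Arf, was at 11.57, 12.09 and 11.69 in the cultures, against 7.17, 7.10 and 8.01 in the nerves, above every tissue array, with 4.40 ± 0.11. Cdkn1a, p21, was within 2-fold at 0.20 ± 0.07 on its brighter probe and at 3.15 on its second. Cdkn1b, p27, was lower, at -1.85 ± 0.04, but level with the proximal segment, and so was Cdkn1c, p57, at -2.38 ± 0.09, although the distal segment, at 9.83, was close to the culture's 9.97. Btg2, an antiproliferative gene that answers to p53, was lower, at -3.45 ± 0.14. Among growth genes that decline after birth, Mycn had at least 4.78, Hmga1, a chromatin protein of dividing cells, at least 3.52, and Ezh2, the Polycomb methyltransferase, 3.45 ± 0.27. For Hmga1 both cut segments lay within 2-fold of every culture, and of the nerves only the contralateral one was dim. The imprinted pair Igf2 and H19 was lower instead, at -4.96 ± 0.20 and -5.53 ± 0.14.

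Genes of the extracellular matrix went both ways. Col4a1, a chain of the basement membrane collagen, was at 16.79, 16.24 and 17.13 in the cultures, against 14.00, 12.84 and 12.98 in the nerves, with 2.79 ± 0.07, while Col4a4, another type IV chain, was not well above background in culture, with -3.65 or lower. Agrn, a proteoglycan of basement membranes, had 3.67 ± 0.08, Lamc1, a laminin chain shared by most Schwann cell laminins, 1.31 ± 0.03, and Nid2, a linker between laminin and collagen, 2.02 ± 0.08, or 0.37 on its second probe. Col18a1, the source of endostatin, stood at 4.05 ± 0.08 and the type V collagen chains Col5a1 and Col5a3 at 1.70 ± 0.08 and 2.11 ± 0.07. Col3a1, a fibrillar collagen, was lower, at 13.22, 12.90 and 13.86 in the cultures, against 17.20, 15.71 and 15.90 in the nerves, at -3.98 ± 0.07, and Col6a2, a microfibrillar collagen chain, at -2.65 ± 0.08. Col1a1 and Col1a2, the chains of type I collagen, were at 1.03 ± 0.07 and 0.13 ± 0.07. Itgb4, the laminin receptor subunit that comes with myelination, was lower, at -5.24 ± 0.08. Across 14 collagen genes 6 were higher and 5 lower (9 and 4 against the distal segment), and across 24 laminin, integrin and related genes 8 and 5. The shares among all genes were 21.5% higher and 20.8% lower.

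Markers of the other cells of a nerve were read in the same way, since a culture can carry them over. Of 27 fibroblast and perineurial genes, 23 were lower and 3 higher, with a median of -3.74. Dcn, decorin, the abundant proteoglycan of endoneurial fibroblasts, was at 2.73, 1.77 and 2.94 in the cultures, against 17.49, 16.00 and 16.26 in the nerves. It was not well above background in the culture, and the ratio was -14.17 or lower. Lum, lumican, had -9.41 or lower, Cldn1, the tight junction protein of perineurial cells, -10.31 or lower, and Pdgfra, a fibroblast receptor, -6.25 ± 0.06. The members that were higher were Postn, periostin, at 2.43 ± 0.08, Thy1, the antigen against which the cells were purified, at 1.83 ± 0.20, and Has2, a hyaluronan synthase, at 1.11 ± 0.22, though the proximal segment, at 7.71, was above the culture's 7.40. Thy1 was at 8.55, 8.26 and 8.85 in the cultures, against 6.72, 6.39 and 6.34 in the nerves. The summed signal of the list was between 14.45 and 14.86 in the 3 cultures and between 17.78 and 19.36 in the 3 nerves (log2 of the sum). The part of these cells in the nerve's signal for other genes was not tested.

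Endothelial genes were lower in 19 of 21 and higher in none, with a median of -5.36. Pecam1, the adhesion protein CD31, was at 2.62, 3.41 and 2.75 in the cultures, against 12.52, 12.43 and 12.60 in the nerves, with -9.21 or lower, and Plvap, a protein of capillary pores, was at background on all 3 cultures, with -10.02 or lower. Kdr, the main VEGF receptor, had -7.28 ± 0.30. The list had 9 of 21 members well above background in the unstimulated culture, against 21 of 21 in the nerve. Cdh5, VE-cadherin, was 1 of the 2 members within 2-fold, at 8.80 in culture and 8.45 in nerve, and its single probe lay between 7.7 and 8.9 on all 8 arrays. Genes of pericytes and smooth muscle split, with 8 of 17 lower and 5 higher. Rgs5 and Des, which mark pericytes and muscle cells, were lower, at -3.72 ± 0.30 and -4.57 ± 0.30, while Mcam, an adhesion molecule, and the contractile protein gene Cnn1 were higher, at 2.51 ± 0.08 and 3.60 ± 0.47.

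**Figure D4:**
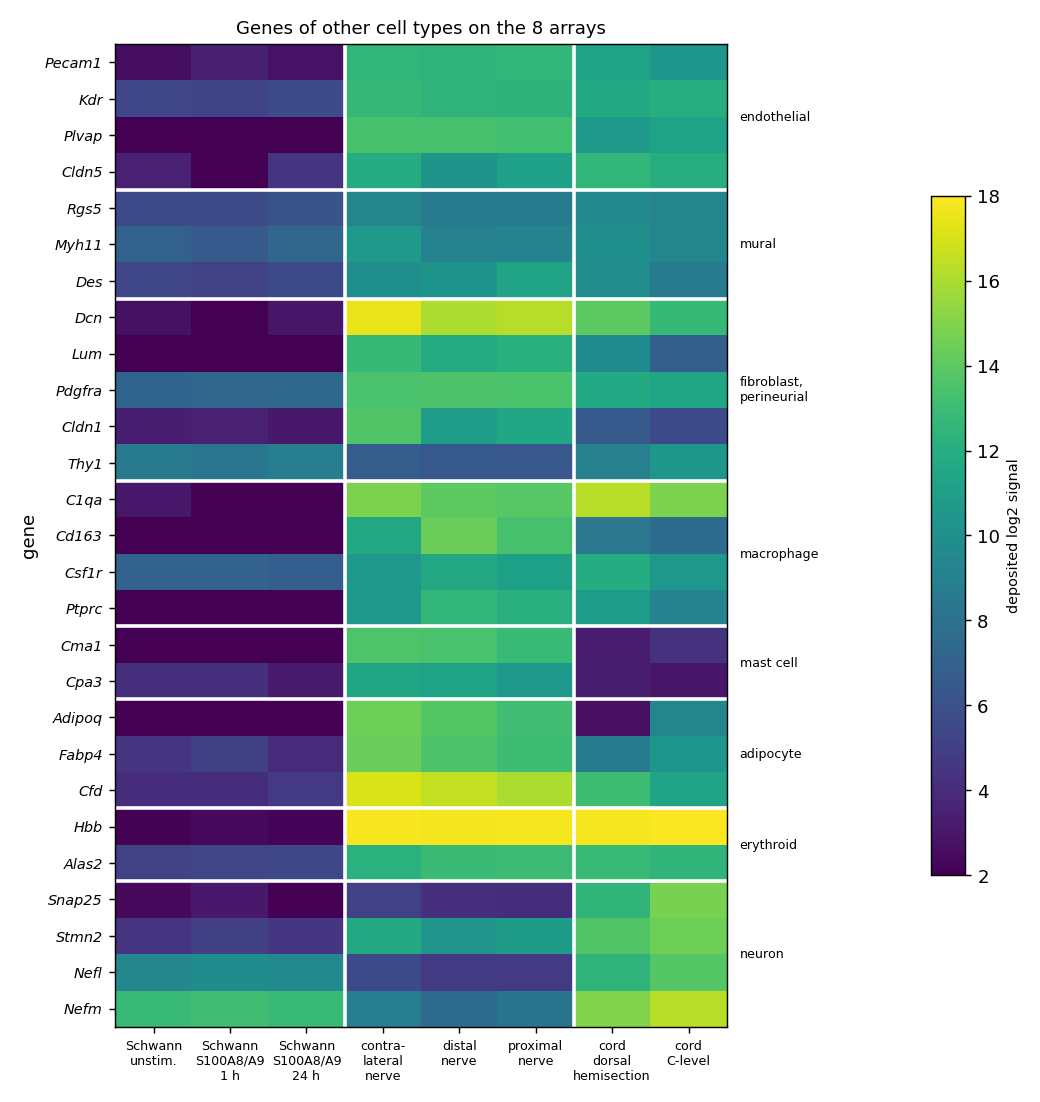
Deposited log2 signal (colour, with values under 2 or above 18 at the end colours) of 27 genes of other cell types in rows on the 8 arrays in columns, cultures left, nerves centre and cords right; levels are to be compared along a row. The 3 cultures are dark for endothelial, macrophage, mast cell, fat and blood genes, and Nefl and Nefm are brighter in them than in the nerves.

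Genes of monocytes and macrophages were lower in 27 of 28, all 27 of them in all 9 pairings, with a median of -5.88. The share lower in all 9 pairings was 12.9% among all genes. C1qa, a chain of complement C1q made by macrophages, was at 3.03, 1.57 and 1.56 in the cultures, against 14.83, 14.01 and 13.86 in the nerves, with -11.51 or lower. Ptprc, the leukocyte antigen CD45, had -7.25 or lower, and Cd163, a scavenger receptor of resident macrophages, -8.32 or lower. On all 3 cultures, 15 members were not well above background. By contrast C1qb was not dim, at 14.14, 13.07 and 14.27 in the cultures, against 16.71, 15.77 and 15.77 in the nerves, although C1qa and C1qc were at background on the same arrays. Cx3cr1, the fractalkine receptor, also kept a signal, at 10.62 in culture and 11.60 in nerve. The summed signal of the list lay between 13.50 and 14.51 in the cultures and between 18.57 and 19.32 in the nerves. C1qb alone made up between 73.8 and 84.7 percent of that sum in the cultures and between 8.5 and 27.4 percent in the nerves, and without it the sums lay between 11.57 and 11.80 in the cultures and between 18.11 and 19.19 in the nerves.

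Mast cell genes were bright in the nerve. Cma1, chymase, was at 1.80, 1.90 and 1.85 in the cultures, against 13.59, 13.39 and 12.78 in the nerves and 3.26 and 4.34 in the cords, so it was bright in the 3 nerves alone. Cpa3, carboxypeptidase A3, was lower, at -7.29 ± 0.54. Of 19 mast cell and granulocyte genes, 16 were lower and none higher. S100a8 and S100a9, whose protein complex was given to the treated cultures, were not well above background in the unstimulated culture, with -2.41 or lower and -3.81 or lower. Of 17 T, NK and B cell genes 12 were lower and 1 higher. Cd4 was lower, at -3.45 ± 0.54, and the higher member was Cd3d, at 1.01 ± 0.04. For Cd3d the distal segment, at 10.10, was above the culture's 9.67. Cd3g and Lck were within 2-fold, at -0.95 and -0.54.

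MHC class II, complement and interferon response genes were lower too, though some members, such as C1qb and Cfd, also stand in the lists of macrophages or fat cells. All 11 MHC class II presentation genes were lower, with a median of -3.85. Cd74, the invariant chain, was at 4.52, 4.51 and 5.06 in the cultures, against 15.38, 15.49 and 15.17 in the nerves, a ratio of -10.86 ± 0.54. The 3 nerves lay within a log2 unit of each other, far above all cultures. Complement genes were lower in 19 of 21, with a median of -6.39. Among them C3, the central component, had -6.39 or lower, Serping1, the C1 inhibitor, -12.02 or lower and C4a, a classical pathway component, -7.56 ± 0.10. Interferon response genes were lower in 22 of 28 and higher in none, with Bst2, an antiviral tether, at -6.77 ± 0.42, Irf7, the master regulator of interferon, at -6.69 ± 0.54 and B2m, the light chain of MHC class I, at -2.43 ± 0.07.

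Chemokine and cytokine genes were lower in 23 of 33 and higher in 3, with a median of -3.06. Many of the lower ones were well above background in the nerve alone. Of the 19 well above background on both arrays, 9 were lower and 3 higher, with a median of -0.87. Il34, a ligand of the macrophage growth factor receptor, had -9.62 or lower, Ccl21, which draws lymphocytes, -8.81 or lower, and Il33, an alarm signal of stromal cells, -6.68 ± 0.13. Ccl2, which draws monocytes, was at 9.19, 13.08 and 9.38 in the cultures, against 11.13, 15.29 and 15.58 in the nerves. The unstimulated culture was lower than the contralateral nerve at -1.94 ± 0.04 and the 1 h culture was higher than it. The 3 higher members were Inhba, the activin subunit, at 2.31 ± 0.09, and the growth factor genes Tgfb1 and Tgfb2 at 1.16 ± 0.06 and 1.22 ± 0.18. Inhba was at 11.02, 11.73 and 11.06 in the cultures, against 8.71, 10.77 and 12.54 in the nerves, so the proximal segment was above every culture.

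Fat and blood also marked the nerve, and muscle did so less evenly. Adipoq, adiponectin, was at 1.69, 1.73 and 1.69 in the cultures, against 14.48, 13.79 and 13.10 in the nerves, and 15 of 16 adipocyte genes were lower. Fabp4, the fatty acid carrier of fat cells, had -9.85 ± 0.54 and Cfd, adipsin, -12.98 or lower. Hbb, a beta globin, was at 2.11, 2.41 and 2.16 in the cultures, against 17.85, 17.74 and 17.79 in the nerves and 17.76 and 17.89 in the cords. The cultures were at background and all 5 tissue arrays bright, and the ratio of -14.54 or lower was the largest bound of all genes. Hba-a1, an alpha globin, was at 12.06 in culture, against 18.52 in nerve on its brighter probe, a ratio of -6.46 ± 0.08, while its second probe gave -13.73, so the signal in culture rests on 1 of 2 disagreeing probes. Muscle genes were lower in 14 of 20 and higher in 1, with a median of -1.92. Against the proximal segment 20 of 23 were lower and 0 higher (median -5.57). Tnnt3, a fast troponin, was at 3.18, 1.65 and 2.80 in the cultures, against 9.37, 9.38 and 12.64 in the nerves, highest in the proximal segment. The higher member was Tnnc1, at 1.16 ± 0.13, though the proximal segment, at 9.41, was above the culture's 8.66. Acta1 was within 2-fold, at 0.83 ± 0.09, and Myh4 was not well above background in culture, with -0.28 or lower.

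Neuronal genes did not stand together, with 8 of 24 higher and 11 lower and a median of -0.25. Stmn2, a microtubule regulator carried in axons, was at 4.38, 5.00 and 4.55 in the cultures, against 11.74, 10.34 and 10.71 in the nerves and 13.66 and 14.49 in the cords, lower, at -7.36 ± 0.54. Snap25, a synaptic vesicle fusion protein, was dim in culture, with -1.81 or lower. Neurofilament genes did not go one way, and 2 were higher in the culture. Nefm, the medium chain, was at 12.86, 13.12 and 12.79 in the cultures, against 8.83, 7.58 and 8.20 in the nerves and 14.96 and 16.29 in the cords, so the cultures lay between nerve and cord. Nefl, the light chain, had 3.87 ± 0.30, and the heavy chain gene Nefh was at background in the culture. Calca, which encodes the peptide CGRP, was at 10.81, 13.41 and 10.52 in the cultures, against 7.47, 5.58 and 6.70 in the nerves, and the 1 h culture was the highest of these arrays. Genes of central glia had 3 of 16 higher and 7 lower, and Mog, the myelin protein of oligodendrocytes, was at 4.99 in culture and dim in nerve, against 11.61 and 12.66 in the cords.

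Genes that answer to hormones and to the medium were read next, with forskolin and serum present in all 3 cultures. Cyclic AMP response genes had 10 of 27 higher and 9 lower, with a median of 0.23. Pde4d, a phosphodiesterase that breaks cyclic AMP down, had 3.17 ± 0.31 on its brighter probe and 0.33 on its second, and Prkar1a, a regulatory subunit of protein kinase A, had 1.80 ± 0.08. The largest ratio of the list was on the lower side, that of Pck1, at -5.55 or lower. Dusp1 and Prkar2b were lower too, at -2.83 ± 0.21 and -2.48 ± 0.04. Vgf, a secreted neuropeptide precursor, was at 7.14, 8.24 and 6.99 in the cultures, against 2.61, 7.38 and 7.75 in the nerves, so only the contralateral nerve was dim. Serum response and YAP target genes had 15 of 28 higher and 3 lower, with a median of 1.09. Ankrd1, a target of YAP, was at 9.05, 9.61 and 9.03 in the cultures, against 4.33, 6.64 and 7.62 in the nerves, with 4.72 ± 0.46. Thbs1, thrombospondin, had at least 4.93, Tead1, the DNA-binding partner of YAP, 2.87 ± 0.31 and Ccn2, connective tissue growth factor, 1.76 ± 0.03.

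Glucocorticoid response genes were lower in 18 of 19 and higher in none, with a median of -2.80, and 10 were lower in all 9 pairings. The share lower in all 9 pairings was 12.9% among all genes. Sult1a1, a sulfotransferase, had -11.44 or lower. Tsc22d3, the glucocorticoid-induced leucine zipper, was at 10.82, 10.33 and 11.20 in the cultures, against 13.61, 11.86 and 12.04 in the nerves, with -2.80 ± 0.08, and Sgk1, a kinase that answers to the hormone, had -3.22 ± 0.10. Nr3c1, the receptor, was lower, at -2.58 ± 0.14, but within 2-fold on its second probe, at -0.71. Fkbp5, its co-chaperone and a common reporter of the hormone, was within 2-fold at 0.41 ± 0.08. Clock genes had 7 of 15 lower and 2 higher. Per1 was at 12.75, 11.18 and 12.95 in the cultures, against 15.92, 12.99 and 13.82 in the nerves, while Bmal1, the positive arm of the clock, was higher at 1.15 ± 0.08. Immediate early genes had 10 of 27 lower and 4 higher. Of these Egr1 was lower, at -2.35 ± 0.14, and Fosl1, an AP-1 member, had at least 5.68 over the contralateral nerve but stood at 10.41 and 9.96 in the cut segments, above the culture's 9.62.

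Cholesterol synthesis genes had 9 of 25 lower and 2 higher, with a median of -0.22. The tally ran the other way toward the cut nerve: against the distal segment 11 were higher and 2 lower (median 0.75), and against the proximal segment 8 and 1 (median 0.40). Hmgcs1, which makes HMG-CoA, was at 14.58, 14.69 and 14.94 in the cultures, against 16.69, 14.33 and 14.84 in the nerves, so the contralateral nerve stood above both the cultures and the cut segments. Stard4, a sterol carrier, was higher, at 2.36 ± 0.03. Fatty acid genes were mixed, with Scd, the stearoyl desaturase, at -3.87 ± 0.08 and Fads2, a desaturase of longer chains, at 3.45 ± 0.11. Among glycolysis and hypoxia response genes, 10 of 29 were lower and 3 higher. Ldha, the lactate dehydrogenase chain that favours lactate, was higher, at 2.15 ± 0.07 and its partner Ldhb lower, at -2.06 ± 0.08. Ndrg1, a Schwann cell gene mutated in an inherited neuropathy of people, was lower, at -5.04 ± 0.08.

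Channel and transporter genes were lower in 15 of 28 and higher in 4, with a median of -1.15. Of the 20 well above background on both arrays, 8 were lower and 4 higher, with a median of -0.20. Kcnk1, a leak potassium channel, was at 2.31, 3.38 and 1.90 in the cultures, against 13.66, 11.06 and 11.80 in the nerves. Aqp1, a water channel, was lower, at -6.33 ± 0.06. Metallothionein genes were lower, Mt3 at -10.24 ± 0.54, Mt2A at -4.08 ± 0.04 and Mt1 at -2.31 ± 0.08. The list of oxidative stress, heme and metallothionein genes as a whole had 4 of 24 higher and 8 lower, with a median of 0.20. Hox genes had 5 of 13 higher and 3 lower, with Hoxb7 at 2.81 ± 0.08 and Hoxa11 at 2.62 ± 0.31 among the higher ones. The shares among all genes were 21.5% higher and 20.8% lower. None of 26 ribosomal protein genes was 2-fold apart, and their median was 0.15.

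**Figure D5:**
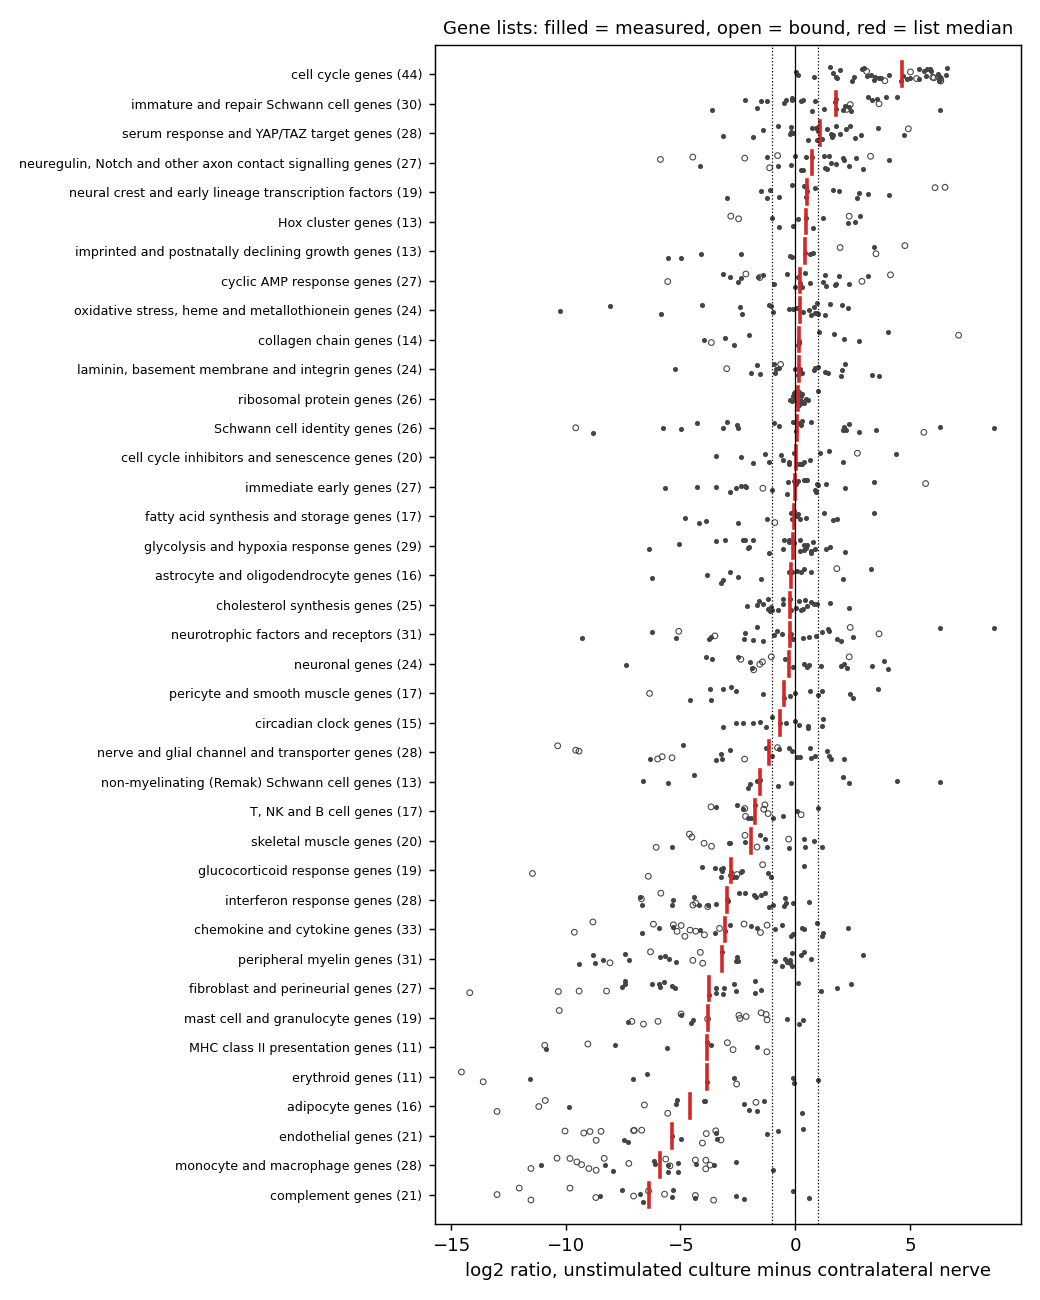
Log2 ratio, unstimulated culture minus contralateral nerve, of each measured gene in 39 lists, ordered by list median (red bar), with the number of genes in brackets; open points are bounds and dotted lines mark 2-fold. Cell cycle genes have the highest median and complement, macrophage and endothelial genes the lowest, while ribosomal protein genes lie within 2-fold of 0.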

How the data were processed

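Total RNA of 8 samples was read on one-colour Agilent arrays, 1 array for each group. The authors deposited a value table on a log2 scale, whose 8 columns have equal medians, and per-spot scans that hold each spot's intensity. Per the file headers the scans were made with Agilent Feature Extraction 10.7.3.1, while the submitters' processing notes name 10.5. No source used here states how the value table was normalized. Each column was matched to a scan by rank. For 7 of 8 samples the scan that matched was recorded under another sample, so columns were taken by their headings, and the scans as recorded are an alternative.

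Probes were named through RefSeq accessions (assembly GRCr8). Of 24894 probes, 15213 matched 12765 symbols and 9681 matched none. A gene's probe is that with the highest mean over the 8 columns. Of 774 genes at least 2-fold apart that have several probes, 58 had probes that disagreed in sign. A gene was kept if a share of at least 0.5 of its spots were flagged well above background on 1 of the 2 arrays or both. Where the dimmer array was not, the ratio is a bound against the lowest signal among probes well above background there. For the technical error, the SD of replicate spots was pooled in 10 signal bins on each array and divided by the square root of the probe's number of spots. The errors of the 2 arrays were then combined as the root of their summed squares. The error thus belongs to the signal bins and not to a gene's own spots. Its median was 0.11 over genes well above background on both arrays. The number of arrays limits the precision.

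Genes named come from the 15 highest and 15 lowest measured ratios, the 10 largest bounds each way, and from each list its key members and the 4 with the largest ratio; other list members may be named. Not all genes the rule allows are printed, and some are not reported here. The members and lists were chosen with earlier results of these data known. Alternatives were scaling of the scans to their 75th percentile, normexp (offset 50) on median signals with quantile normalization in limma 3.58.1 (R 4.3.3), other filters, the mean over probes, and other culture or nerve arrays. Counting was tested on simulated data, and other steps ran in Python 3.11.15 with pandas 2.3.3.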

Additional observations from a re-analysis of the deposited data

How the results depend on the processing

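No paired analysis was possible because each group is 1 array. One array a side also allows no test, and the technical error covers the array only. Dim genes are limited by signal over background. The culture was past 2-fold upward and downward for 2572 and 2482 genes. The numbers were 1696 and 1649 after normexp and quantile normalization of the matched scans, 2029 and 2835 with 75th percentile scaling, 2129 and 1549 where both arrays had to be well above background, and 1592 and 2220 with the scans recorded under the samples. The requirement on both arrays leaves fewer genes, and background correction and quantile normalization were not tried apart. Of 185 named genes at least 2-fold apart, 185 kept their sign with 75th percentile scaling, and 185 with normexp. Of these, 5 and 9 fell under 2-fold. With normexp, 4 of 19 lists with medians of at least 2-fold fell under it. They were immature and repair Schwann cell genes at 0.80 and channel and transporter genes at -0.57. The others were T, NK and B cell genes at -0.44, with 5 of 17 lower, and skeletal muscle genes at -0.94, with 10 of 20 lower. Where both arrays had to be well above background, 2 of the 19 lists fell under 2-fold. They were chemokine and cytokine genes at -0.87, with 9 of 19 lower, and channel and transporter genes at -0.20, with 8 of 20 lower. With the 1 h culture in place of the unstimulated culture, Ccl2 at 1.95 turned. With the distal nerve in place of the contralateral nerve, Cdkn1c at 0.14, Fosl1 at -0.79, Gdnf at -0.24, Hmgcs1 at 0.25, Mcm3 at -0.34, Nrg1 at -0.22, Ntrk3 at 0.18, Ret at 0.31, Ucn2 at -1.68 and Vgf at -0.24 turned, as did the median of non-myelinating (Remak) Schwann cell genes at 0.056. With the proximal nerve, Cdkn1b at 0.046, Fosl1 at -0.34, Has2 at -0.31, Inhba at -1.51, Mcm3 at -0.13, Nrg1 at -0.52, Ret at 0.55, Ucn2 at -0.62 and Vgf at -0.61 turned. The cause was not tested. With the scans as recorded, these list medians had the opposite sign: immature and repair Schwann cell genes at -0.49, fibroblast and perineurial genes at 1.75, endothelial genes at 0.65, monocyte and macrophage genes at 0.20, T, NK and B cell genes at 1.14, mast cell and granulocyte genes at 2.61, MHC class II presentation genes at 1.83, complement genes at 0.27, interferon response genes at 0.37, adipocyte genes at 2.82, skeletal muscle genes at 3.01, glucocorticoid response genes at 0.027 and chemokine and cytokine genes at 1.05. Another 5 lists kept their sign but had medians under 2-fold: peripheral myelin genes at -0.43, with 11 higher and 12 lower, non-myelinating (Remak) Schwann cell genes at -0.90, with 1 higher and 6 lower, cell cycle genes at 0.023, with 8 higher and 5 lower, erythroid genes at -0.31, with 0 higher and 3 lower and serum response and YAP/TAZ target genes at 0.98, with 13 higher and 0 lower. Named genes of opposite sign there were Adgrg6 at -0.32, Adipoq at 9.74, Agrn at -1.78, Ajap1 at -3.20, Akap5 at -4.13, Aqp1 at 3.82, Art3 at 1.32, Artn at 2.08, Atf3 at -0.77, B2m at 0.075, Bst2 at 0.67, Btg2 at 1.67, Cadm3 at 0.56 and Cadm4 at -0.37. Also opposite were Calca at -5.36, Camk4 at -1.43, Ccl2 at 3.29, Ccl21 at 8.57, Ccnb2 at -1.24, Cd163 at 4.82, Cd74 at 2.04, Cdh2 at -3.87, Cdk1 at -0.17, Cdkn1b at 0.33, Cfd at 3.41, Cldn1 at 4.61, Cldn19 at 2.47 and Cma1 at 8.72. The opposite sign was found for Cnn1 at -0.70, Cntf at 1.87, Col3a1 at 2.07, Col4a4 at 0.83, Col6a2 at 0.98, Col7a1 at -1.33, Cpa3 at 6.36, Dcn at 2.70, Des at 1.45, Drp2 at 2.09, Egr1 at 1.34, Egr2 at 3.33, Ets1 at -0.34 and Fabp4 at 4.23. Further ones were Gfap at -5.66, Gfra2 at -0.098, H19 at 1.62, Hey2 at -3.58, Hmgcs1 at 0.86, Hoxb7 at -2.19, Ifi47 at 1.42, Igf1 at 1.08, Il33 at 2.24, Il34 at 0.58, Irf7 at 0.32, Itgb4 at 1.80, Kcnk1 at 0.55 and Kdr at 0.65. Also opposite were L1cam at -0.77, Lum at 2.31, Mal at 1.66, Mgarp at -0.36, Mog at -9.15, Mt1 at 0.42, Mycn at -0.16, Ncam1 at -3.66, Ndrg1 at 1.18, Nefl at -7.38, Nefm at -6.57, Ngfr at -0.49, Notch1 at -0.54 and Nr3c1 at 0.027. The opposite sign was found for Ntf3 at 1.61, Olfm2 at -1.86, Pdgfra at 1.78, Pecam1 at 1.40, Per1 at 3.14, Pimreg at -2.69, Plk1 at -1.58, Plvap at 2.60, Pmp2 at 2.86, Postn at -0.58, Prkar1a at -0.25, Prx at 2.30, Ptprc at 1.30 and Ptprn at -2.04. Further ones were S100a8 at 2.74, S100a9 at 2.60, Scd at 0.84, Scrg1 at -9.95, Sema3e at -3.45, Serping1 at 1.39, Sgk1 at 0.12, Slitrk6 at -2.38, Snai2 at -0.079, Sostdc1 at 2.88, Sox10 at -1.51, Sox2 at -3.03, Sult1a1 at 0.96 and Tfap2a at -0.23. Also opposite were Tfap2b at -2.67, Tgfb1 at -0.36, Tgfb2 at -1.26, Thy1 at -2.61, Tnnt3 at 4.56, Tsc22d3 at 0.87, Ttk at -1.002, Twist1 at 1.37 and Vgf at -5.83. These recorded scans match the proximal nerve and dorsal hemisection cord columns of the value table. Under the headings their ratio is thus proximal nerve minus cord and holds no culture.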

Other observations

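Probes whose accession matched no symbol were left out of the comparison. Of 9681 such probes in the value table, 8767 were well above background on at least 1 of the 2 arrays. Among these, 1958 (22.3%) stood 2-fold or more above the contralateral nerve in the unstimulated culture and 1352 (15.4%) 2-fold or more below it, with a median log2 ratio of 0.25. Among the named genes 20.8% were at least 2-fold lower.

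Some genes known from restricted tissues had nearly flat signals across cultures, nerves and cords. They were chosen after their values were seen. Th, the enzyme that makes catecholamines in sympathetic neurons, lay at 10.72, 10.49 and 10.67 in the unstimulated, 1 h and 24 h cultures, against 10.79, 10.69 and 10.81 in the contralateral, distal and proximal nerve, and at 11.15 and 11.59 in the 2 cords, all log2 levels. The cultures and nerves overlapped. Its log2 ratio of unstimulated culture to contralateral nerve was -0.07, while that of the axonal gene Stmn2 was -7.36. Igtp, an interferon-induced GTPase, lay between 16.04 and 17.06 on all 8 arrays, with a log2 ratio of -0.50. Ifi47, an interferon-induced gene of the same family, was not well above background in any of the 3 cultures, was well above it in all 3 nerves, and had a log2 ratio of -5.85 or lower. Th and Ifi47 each rest on 1 measured probe. The binding of these probes to other transcripts was not tested.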
